A study of Mus musculus with 12 samples.

Results

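The mitochondrial DNA of the mouse carries 13 protein genes, and 10 of them are described here in the kidney: ND1, ND2, ND4, ND5, ND6, CYTB, COX1, COX2, COX3 and ATP6. They were chosen by symbol, not by their values, and are 10 of the 25553 genes in the deposited table. All 10 had a row and all 10 passed the filter on low values, which 12357 genes passed. The remaining genes of the same class, ND3, ND4L and ATP8, are given beside them where they bear on a value.

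Kidneys came from 12 wild-type mice, 3 in each of 4 groups. HR mice had hypoxic preconditioning before renal ischemia-reperfusion injury (RIRI), and NR mice had the same injury after breathing room air. HS mice were preconditioned and sham operated, and NS mice breathed room air and were sham operated. Injury was a 45 min clamp on the pedicles of both kidneys with 12 h of reperfusion, and preconditioning was a chamber at 8% oxygen for 2 h, 4 h and 8 h on days 1, 2 and 3. The labels give no sex, strain or age, and nothing in them limits the model to 1 cell type: each library holds RNA of whole kidney tissue.

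Mitochondrial DNA is a small circle present in many copies per cell, and its protein genes all code for subunits of the respiratory chain or of ATP synthase. Both strands are transcribed as long precursors, from which the transfer RNAs between the genes are cut out to release the messenger RNAs. ND6 is the protein gene of the light strand, and the others are read from the heavy strand. Each complex also needs subunits coded in the nucleus, made in the cytosol and imported. In the kidney, the proximal tubule and the thick ascending limb are the segments richest in mitochondria, since they drive active transport. Copies of mitochondrial DNA that moved into nuclear chromosomes during evolution are annotated as pseudogenes, and a read from a copied stretch can match both places.

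Such copies covered the members unequally. In the mm10 build (GRCm38), COX2 lies at MT:7013-7696, ATP6 at MT:7927-8607 and COX3 at MT:8607-9390, each as 1 uninterrupted exon on the plus strand. A block on the minus strand of chromosome 1, chr1:24611535-24616197, carries 7 annotated pseudogenes that match the mitochondrial DNA in the same order, with 7 differences over 4149 aligned bases. Over their aligned lengths, Gm28661 equals COX2 over 681 bases, Gm10925 equals ATP6 over 678, Gm28437 equals COX3 over 783, and Gm28439 equals the first 876 bases of ND4, all with no difference. The first 90 bases of COX2 and of its chromosome 1 copy are shown because no base tells them apart.
COX2, MT:7013-7102, plus strand: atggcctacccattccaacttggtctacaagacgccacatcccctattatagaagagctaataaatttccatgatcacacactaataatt
Gm28661, chr1:24615476-24615565, minus strand: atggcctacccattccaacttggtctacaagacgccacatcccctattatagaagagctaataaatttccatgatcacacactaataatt

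COX1 (MT:5328-6872, plus strand) is only partly covered. Gm29216 on chromosome 1 matches COX1 bases 1054 to 1545 with 6 differences, all of them in the first 90 aligned bases. Gm13340 on chromosome 2 (chr2:22588103-22589647) matches all of COX1 at 97.61% identity. The same 90 bases of the 3 are shown because they hold the edge of the chromosome 1 copy, and capitals mark the positions at which the 3 are not all alike.
COX1, MT:6381-6470, plus strand: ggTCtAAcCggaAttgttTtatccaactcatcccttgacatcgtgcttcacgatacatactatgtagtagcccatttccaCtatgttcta
Gm29216, chr1:24616108-24616197, minus strand: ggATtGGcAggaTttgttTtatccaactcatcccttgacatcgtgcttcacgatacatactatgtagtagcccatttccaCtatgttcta
Gm13340, chr2:22588505-22588594, minus strand: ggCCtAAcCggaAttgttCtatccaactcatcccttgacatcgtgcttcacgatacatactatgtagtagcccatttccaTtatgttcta
Counted in COX1 from base 1 of the gene, the chromosome 1 copy reads T1056A, C1057T, A1059G, A1060G, C1062A and A1066T, and nothing differs after that up to the end of the gene.

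The share of a gene's 100-base stretches that also occur, without a mismatch, in an annotated nuclear transcript put numbers on this. It was 99.9% for COX3, 99.5% for COX2, 99.5% for ATP6, 60.8% for ND4, 30.8% for COX1 and 3.2% for ND2. It was 0.0% for ND1, ND5, ND6 and CYTB. For ND4L, with a mean of 46.2 FPKM, it was 98.5%, and for ND3, with 16.7 FPKM, 97.6%. For ATP8, which overlaps ATP6 and had 12.8 FPKM, it was 0.0%, but only annotated transcripts were searched, and the stretch of chromosome 1 between Gm28661 and Gm10925, which lies where a copy of ATP8 would, holds none. With stretches of 50 and 150 bases it was 51.1% and 23.6% for COX1 and 62.2% and 59.2% for ND4. No values of the nuclear pseudogenes named here were examined, so none are set beside those of the genes they copy.

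**Figure D1:**
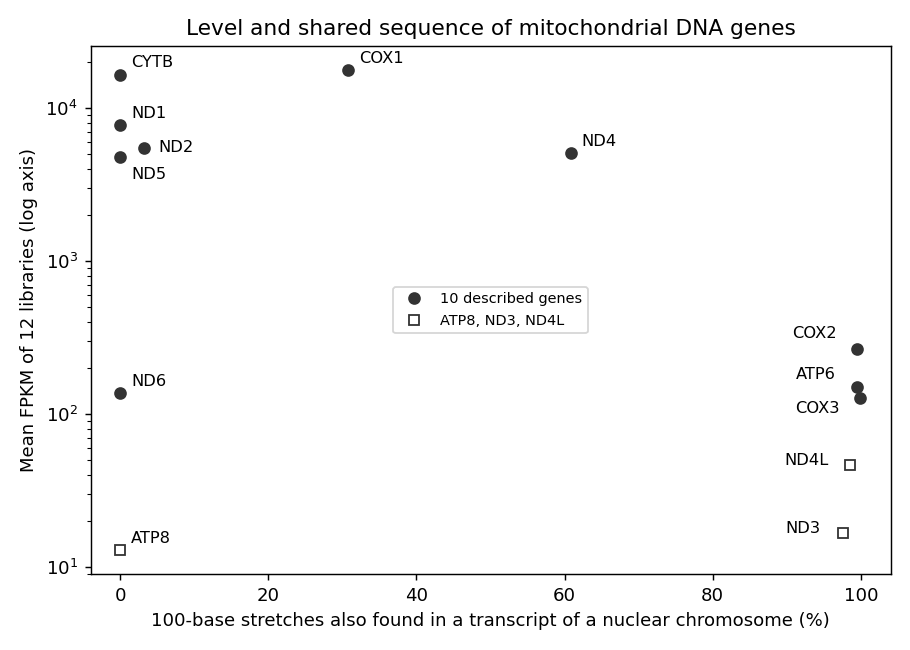
Mean FPKM over 12 libraries (vertical, log scale) against the percent of a gene's 100-base stretches that also occur in an annotated nuclear transcript (horizontal), 1 point per protein gene of the mitochondrial DNA. COX2, ATP6 and COX3, at 99.5% to 99.9% shared, sit between 126 and 265 FPKM, and ND6 is as low at 0.0% shared.

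The 10 genes fell into 2 sets by level. FPKM counts fragments per kilobase of gene, scaled to the depth of the library, so it can be compared between genes. Over the 12 libraries COX1 averaged 17689 ± 1420 FPKM (SD), CYTB 16500, ND1 7706, ND2 5440, ND4 5081 and ND5 4775, whereas COX2 averaged 265 FPKM, ATP6 151, ND6 137 and COX3 126. Every library had ND5, the lowest of the upper 6, above COX2, the highest of the lower 4. The pairs CYTB and ND1, and ND1 and ND2, also kept their order in 12 of 12 libraries. COX1 was above CYTB in 10 libraries, ND2 above ND4 in 9, ND4 above ND5 in 8, COX2 above ATP6 in 11, ATP6 above ND6 in 9 and ND6 above COX3 in 8, so these neighbours were not separated in all libraries.

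Within cytochrome c oxidase, whose catalytic core is made of COX1, COX2 and COX3, the levels were thus 17689, 265 and 126 FPKM. COX1, COX2, ATP6 and COX3 lie in this order along the same strand. The 3 low ones are those with 99.5% or more of their stretches shared. Per base of the gene, COX1 had 607 reads, COX2 9.11 and COX3 4.35. Reads that match more than 1 place are left uncounted by default in HTSeq, the counting program that the submitters' processing notes name, but whether it was run that way is not given in the sources used here, and the part of shared sequence in the low levels was not tested. For COX2, COX3 and ATP6, therefore, and in part for ND4 and COX1, the level is uncertain, and so are differences between groups that rest on it.

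ND6 differs from those 3 genes. It codes for a complex I subunit, lies on the minus strand at MT:13552-14070 and shares no 100-base stretch with a nuclear transcript. Its level was 137 FPKM, against 4775 for ND5, whose last bases it overlaps on the opposite strand (MT:11742-13565). Whether the libraries kept the strand is not given in the sources used here, and without it reads of ND6 and of transcripts running across it from the other strand cannot be told apart.

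The members made up a large part of each library. They took 7.82%, 7.49% and 6.89% of counted reads in the HR libraries, 6.37%, 7.63% and 7.17% in NR, 7.54%, 7.22% and 8.34% in HS and 7.83%, 8.09% and 8.08% in NS. The 95% Wilson interval of each share reaches at most 0.0094 percentage points to either side and covers counting error only. By this measure every NR and every HR library was below every NS library, narrowly for HR replicate 1 (7.818%) against NS replicate 1 (7.828%). HR overlapped NR, and the HS libraries overlapped all other groups. As a share of summed FPKM the injured and NS libraries overlapped. There HR replicate 1 (12.61%) and NR replicate 2 (12.44%) were above NS replicate 1 (12.38%). As group means the shares of counted reads were 7.40 ± 0.469% in HR, 7.06 ± 0.636% in NR, 7.70 ± 0.578% in HS and 8.00 ± 0.147% in NS (SD, n = 3 each). These shares are a description and were given no test.

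**Figure D2:**
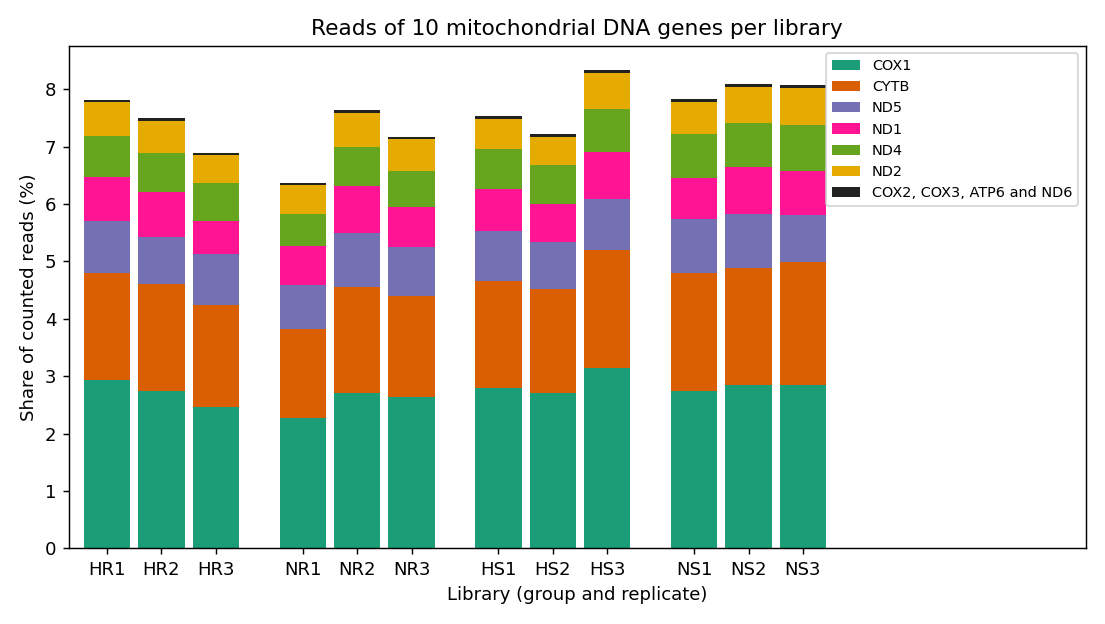
Percent of counted reads that fall on the 10 genes (vertical, from 0), 1 bar per library, grouped as HR, NR, HS and NS, with the genes stacked in colour. The bars run from 6.37% in NR replicate 1 to 8.34% in HS replicate 3, and COX1 and CYTB fill most of each.

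For COX1, CYTB and ND4 the shares of the members' sum differed little in proportion, but some groups did not overlap. COX1 took 30.9 ± 0.691% of the members' summed FPKM in HR, 30.3 ± 0.7065% in NR, 31.6 ± 0.187% in HS and 29.5 ± 0.0503% in NS. Every NS library (at most 29.52%) was below every other library (at least 29.89%). CYTB took 28.5 ± 1.26% in HR, 27.6 ± 0.166% in NR, 28.4 ± 0.314% in HS and 29.5 ± 0.752% in NS. ND4 took 8.80 ± 0.338% in HR, 8.41 ± 0.128% in NR, 8.73 ± 0.290% in HS and 9.16 ± 0.206% in NS (SD, n = 3 each). Every NR library was below every NS library for CYTB (at most 27.79% against at least 28.66%) and for ND4 (8.556% against 8.923%). The low members ATP6 and ND6 moved more in proportion, but the groups set beside each other here overlapped. ATP6 took 0.315 ± 0.105% in NR and 0.233 ± 0.0164% in NS, with NR libraries from 0.217% to 0.426%. ND6 took 0.291 ± 0.0596% in HS and 0.220 ± 0.0686% in NS (SD, n = 3 each). These shares do not depend on how a library is scaled.

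Counted reads ran from 33107581 to 35713247 per library, so that counting error was at most 0.24% of the value for the 6 abundant genes and at most 2.4% for the others. Kidney markers were present throughout, and the lists moved with injury. The summed FPKM of 14 proximal tubule genes was 16095 to 21315 in HR, 18471 to 24441 in NR, 32402 to 37494 in HS and 48011 to 53462 in NS. Such a sum follows the most abundant genes of its list. By gene, the median log2 fold change of the 14 was -0.01 for HS over NS, with 1 called lower and 0 higher. For HR over NR it was 0.45, with 7 higher and 0 lower. The sum of 7 thick ascending limb genes was 1716 to 2042 in HR, 1121 to 1602 in NR, 2449 to 2670 in HS and 2140 to 2336 in NS. For 8 neutrophil genes it was 23.6 to 111 in HR, 132 to 293 in NR, 1.73 to 4.39 in HS and 2.26 to 15.1 in NS. T and B cell markers never summed above 2.55 FPKM, and Cyp11b1, an adrenal enzyme, was under 0.1 FPKM in every library. In bulk tissue, fewer cells of a type and less RNA per cell cannot be told apart.

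**Figure D3:**
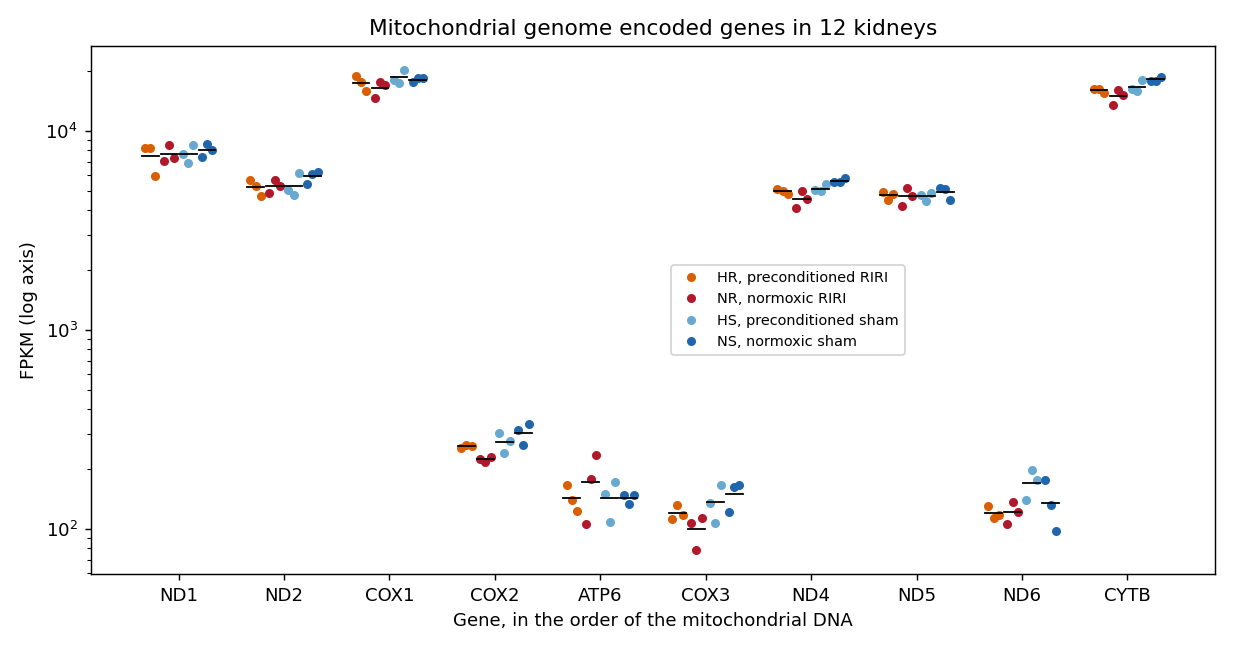
FPKM (vertical, log scale) of the 10 genes, in their order along the mitochondrial DNA, with the HR, NR, HS and NS groups from left to right within a gene, a point per library and a bar at the group mean. COX2, COX3, ND4, CYTB and COX1 have every NR point below every NS point.

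Injury without preconditioning lowered 4 of the 10 genes. The comparison of NR with NS asks what ischemia and reperfusion did to the kidneys of mice that breathed room air. COX2 and COX3 of complex IV, CYTB of complex III and ND4 of complex I passed the test as lower in NR, by 17.8% to 33.8%, and no member passed as higher. Among all tested genes, 30.1% were called lower and 41.6% higher in this comparison, so 4 of 10 lower is close to the share over all genes. In 5 of the 10, COX1 and the 4 called genes, every NR value was below every NS value, which held for 31.4% of all genes tested. The log2 fold changes lay below 0 for 9 of the 10 genes, and for 8 of 10 after quantile normalization, in which COX1 lay above 0. Their median was -0.16, against 0.10 over all genes tested. With COX2, COX3 and ATP6 left out, whose levels are uncertain, 2 of 7 were called lower and the median was -0.15.

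COX2, which carries the copper site that takes electrons from cytochrome c, had 254, 265 and 262 FPKM in HR, 224, 217 and 231 in NR, 302, 240 and 276 in HS and 313, 265 and 337 in NS. All NR values were the lowest of the 12. NR was lower than NS by 0.44 ± 0.10 on the log2 scale (SE, 95% interval -0.65 to -0.22), with an adjusted p of 0.00172 by limma with Benjamini-Hochberg adjustment over the 12357 genes, as for every adjusted p here. In percent, NR was 26.2% lower.

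COX3, a further core subunit of cytochrome c oxidase, had 112, 132 and 117 FPKM in HR, 107, 78.0 and 113 in NR, 135, 107 and 166 in HS and 122, 163 and 167 in NS. The NR and NS groups did not overlap, with 113 FPKM as the highest of NR and 122 as the lowest of NS. The log2 fold change of NR over NS was -0.60 ± 0.18 (SE, limma adjusted p 0.0103).

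CYTB (MT:14145-15288, plus strand) codes for cytochrome b, the one complex III subunit of the mitochondrial DNA, and shares no stretch of 100 bases with a nuclear transcript. It had 16330, 16330 and 15634 FPKM in HR, 13577, 16099 and 15268 in NR, 16307, 15856 and 18034 in HS and 17950, 17858 and 18758 in NS. The highest NR value, 16099, stood below the lowest NS value, 17858, and the HR values were close to the upper end of NR. NR was 17.8% lower than NS, a log2 fold change of -0.28 ± 0.08 (SE, limma adjusted p 0.00636). Quantile normalization and the removal of the filter on low values each ended this call, with adjusted p of 0.261 and 0.623.

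ND4 (MT:10167-11544, plus strand), a proton-pumping subunit of complex I, had 5131, 4984 and 4820 FPKM in HR, 4098, 5017 and 4573 in NR, 5045, 4970 and 5400 in HS and 5574, 5560 and 5795 in NS. The NS values were the 3 highest of the 12. NR was 19.4% lower than NS, a log2 fold change of -0.31 ± 0.08 (SE, limma adjusted p 0.00339), a call lost without the filter on low values (adjusted p 0.213). CYTB and ND4 followed each other closely over the 12 libraries (Pearson r = 0.99, a description over libraries that share groups and scaling).

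The other complex I genes and COX1 did not pass the test. After quantile normalization ND1 (-0.44, limma adjusted p 6.14e-05), ND2 (-0.40, adjusted p 0.02) and ND5 (-0.30, adjusted p 0.0348) did pass as lower in NR, which with the loss of CYTB made 6 lower calls. Quantile normalization sets each value by its rank in the library, so at this level a value also depends on other abundant genes. Spp1, for one, averaged 9528 FPKM in NR and 7065 in HR, but 389 in NS and 542 in HS. The part of such genes in the calls after quantile normalization was not tested. COX1, the subunit with the oxygen-reducing centre, had 18946, 17698 and 15913 FPKM in HR, 14676, 17555 and 17110 in NR, 18099, 17484 and 20301 in HS and 17708, 18394 and 18387 in NS. NR and NS did not overlap, with 17555 FPKM as the highest of NR and 17708 as the lowest of NS, and the log2 fold change was -0.15 (95% interval -0.35 to 0.06, limma adjusted p 0.17). ND2 (MT:3914-4951), a membrane subunit of complex I, had 5648, 5319 and 4703 FPKM in HR, 4907, 5678 and 5279 in NR, 5056, 4795 and 6124 in HS and 5422, 6090 and 6258 in NS, with overlap between every pair of groups. Its log2 fold change of NR over NS was -0.16 (95% interval -0.40 to 0.07, adjusted p 0.187).

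ND1 (MT:2751-3707), which sits where complex I binds ubiquinone, had 8194, 8258 and 5937 FPKM in HR, 7113, 8506 and 7298 in NR, 7664, 6933 and 8496 in HS and 7442, 8581 and 8047 in NS. HR replicate 3 was the lowest of the 12. ND5, another proton-pumping subunit, had 4937, 4479 and 4842 FPKM in HR, 4183, 5171 and 4721 in NR, 4789, 4465 and 4903 in HS and 5182, 5135 and 4497 in NS. The groups overlapped for both genes, with log2 fold changes of NR over NS of -0.07 (95% interval -0.36 to 0.21) for ND1 and -0.08 (95% interval -0.27 to 0.12) for ND5.

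ATP6, the subunit of ATP synthase through which protons pass, was the most variable member, its highest library 2.2 times its lowest. It had 166, 139 and 124 FPKM in HR, 106, 178 and 234 in NR, 150, 108 and 171 in HS and 149, 134 and 147 in NS. NR replicate 1 was the lowest library and NR replicate 3 the highest, so the coefficient of variation within NR was 37.0%, against a counting error of at most 2%. The log2 fold change of NR over NS was 0.20 (95% interval -0.34 to 0.73, limma adjusted p 0.485). Without NR replicate 1 it was 0.51, past the threshold as higher (adjusted p 0.0318).

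NR replicate 1 was the lowest library for 5 of the 10 genes, and the mean of the members' standardized values was lowest there (-1.46) and highest in HS replicate 3 (0.97). The 4 calls did not rest on it: with each library left out in turn, COX2, COX3, CYTB and ND4 were called lower every time. Of the genes outside the 10, ND4L was lower in NR than in NS (log2 fold change -0.92 ± 0.32, adjusted p 0.0211). ND3 had -0.42 (adjusted p 0.131) and ATP8 -0.35 (adjusted p 0.453).

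**Figure D4:**
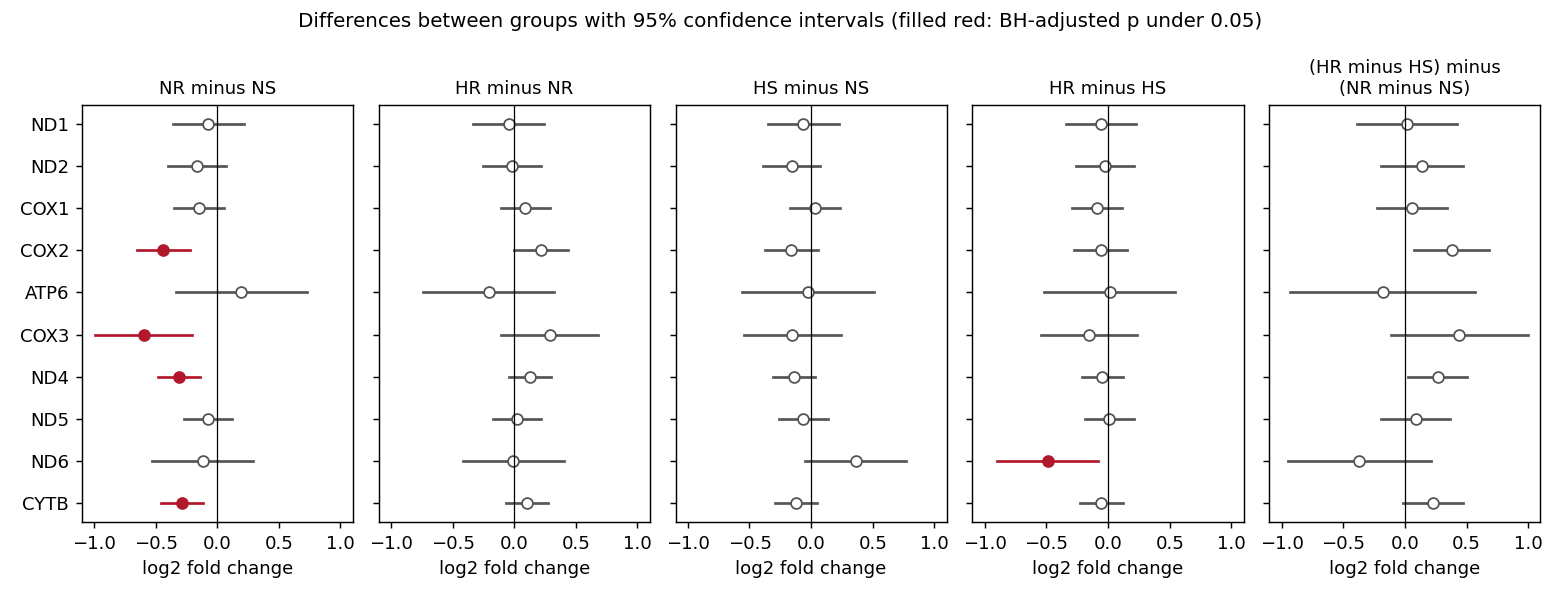
Log2 fold change (horizontal) of the 10 genes, in their order along the mitochondrial DNA (vertical), in 5 comparisons, 1 panel each, with 95% limma intervals as bars and filled points where the adjusted p is under 0.05. In NR minus NS, COX2, COX3, CYTB and ND4 are filled and lie between -0.60 and -0.28, and in HR minus HS only ND6 is filled, at -0.49.

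Markers moved in the same comparison. All 14 proximal tubule genes tested were lower in NR (median log2 fold change -1.60), 6 of 7 thick ascending limb genes were lower (median -3.22) and all 7 neutrophil genes tested were higher (median 2.13). The part of cell composition in the members' differences was not tested.

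The nuclear partners of the members moved further. Of 76 nuclear subunits of the complexes that also hold a member, all 76 were lower in NR than in NS, with a median log2 fold change of -0.63, against a median of -0.16 for the members. In complex I, 37 of 37 nuclear subunits were lower (median -0.68), among them Ndufs1, the largest iron-sulfur subunit, at 36.7 ± 2.13 FPKM in NR and 78.6 ± 3.58 in NS (log2 fold change -1.08, limma adjusted p 1.24e-07). Its 5 mitochondrial members had a median of -0.12, with 1 called. In complex III, 9 of 9 nuclear subunits were lower (median -0.55), beside -0.28 for CYTB.

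In complex IV, 12 of 12 nuclear subunits were lower (median -0.49), with Cox7a1 at -1.41, and the 3 mitochondrial members had a median of -0.44 with 2 called. In ATP synthase, whose list includes its inhibitory factor, 18 of 18 were lower (median -0.67), including Atp5a1, which codes for a catalytic-head subunit, at -0.70 (limma adjusted p 7.49e-07), whereas ATP6 had 0.20 and was not called. The 4 subunits of complex II, which has no mitochondrial gene, were all lower, with a median of -0.84. The difference between mitochondrial and nuclear subunits was not itself tested, and the lists were chosen with earlier results of these data known.

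**Figure D5:**
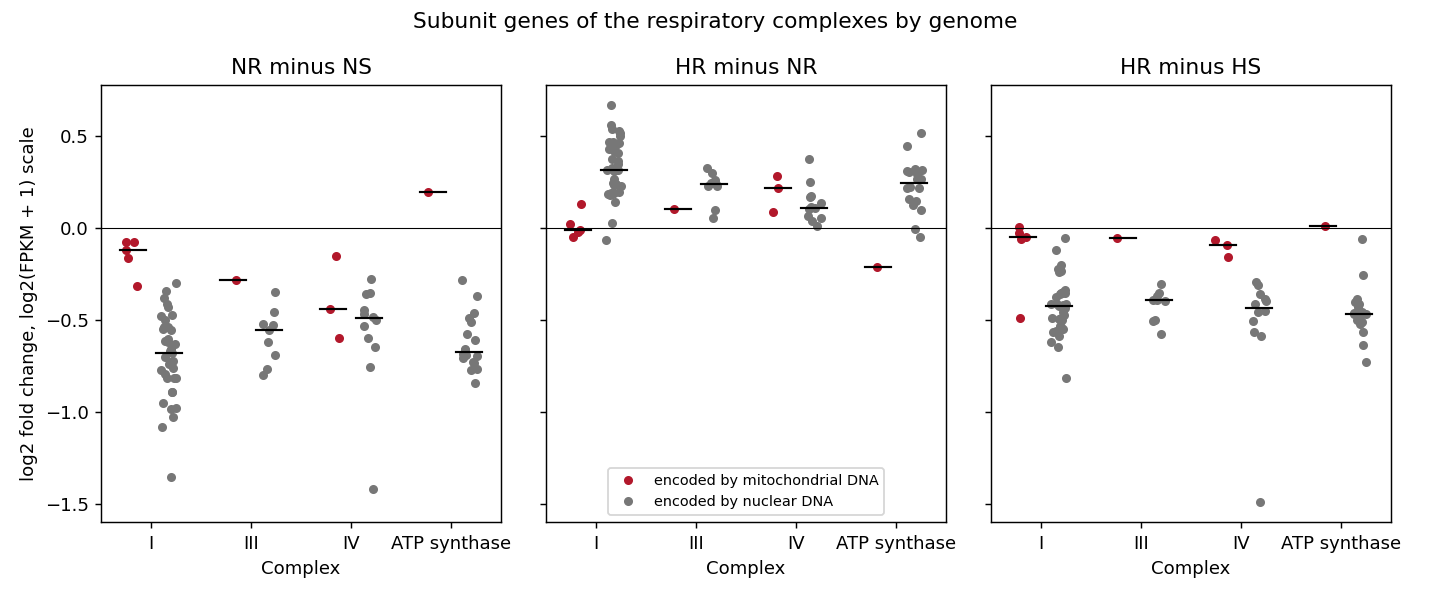
Log2 fold change (vertical) of the mitochondrial genes and of the nuclear subunits of the same complex, 1 point per gene and a bar at the median, for complexes I, III, IV and ATP synthase in NR minus NS, HR minus NR and HR minus HS. In NR minus NS all 76 nuclear subunits lie below 0, with a median of -0.63, and the members' median is -0.16.

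The nuclear genes that serve mitochondrial DNA did not move as a block. Of 7 tested genes listed under its transcription, 4 were lower in NR and 0 higher. Of these, Tefm, an elongation factor (log2 fold change -0.41, limma adjusted p 0.00451), and Polrmt, the mitochondrial RNA polymerase (-0.24, adjusted p 0.0126), act in transcription. The others were Tfb1m, a ribosomal RNA methyltransferase (-0.50, adjusted p 0.00087), and Mterf4, which acts in mitochondrial ribosome assembly (-0.28, adjusted p 0.0163). Tfam, which packages the DNA and starts transcription, had -0.19 (adjusted p 0.0533). Among 17 genes for replication and upkeep of the DNA, 5 were higher, with Rnaseh1 at 1.03 and Atad3a at 0.81, and 5 were lower, with Mpv17 at -0.78 and Endog at -0.66.

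Of 21 genes that process or stabilize mitochondrial transcripts, 8 were higher and 3 lower in NR. Tbrg4, of a family that binds mitochondrial transcripts, was higher (0.83, limma adjusted p 7.2e-06), as were Pde12, which removes poly(A) tails (0.66), and Elac2, which trims transfer RNA ends (0.36). Grsf1, a protein of the granules where transcripts are processed, was lower (-0.59, adjusted p 1.66e-05). Of 13 translation factors 10 were lower and 0 higher, with Gfm2, which recycles ribosomes, at -1.04 and Mtif3, an initiation factor, at -0.76. Of 81 mitochondrial ribosomal proteins 17 were higher, with Mrps18b at 1.67, and 22 lower. Of 10 nuclear regulators of mitochondrial genes 3 were higher and 5 lower: Ppargc1a, a coactivator of nuclear genes for mitochondrial proteins, was lower (-1.23, limma adjusted p 7.78e-07), as was the receptor it works with, Esrra (-1.43), while Myc (4.15) and Pprc1 (1.94) were higher. Of 16 genes of the mitochondrial membranes and matrix used as a gauge of mass 5 were higher and 5 lower, with Tomm40, an import pore, at 0.84 and Vdac1, an outer membrane channel, at -0.73.

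With preconditioning before injury, no member passed the test against injury alone. The comparison of HR with NR asks whether preconditioned kidneys differ after the same injury. By limma 0 of 10 members were called in either direction, 1 had an unadjusted p under 0.05, and limma voom on the recovered reads also called 0, where 24.7% of all genes tested were called higher and 17.4% lower, or 42.1% in all. The median log2 fold change of the members was 0.06, the same as over all genes tested (0.06).

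COX2 was the one member whose HR and NR values did not overlap. Over all genes tested, HR lay wholly above NR in 27.8% and wholly below it in 19.9%. COX2 averaged 260 ± 5.83 FPKM in HR and 224 ± 7.14 in NR (SD, n = 3 each). Its log2 fold change was 0.22 ± 0.10 (SE, 95% interval 0.00 to 0.43, limma adjusted p 0.0966). COX3 averaged 120 ± 10.5 FPKM in HR and 99.4 ± 18.7 in NR, with a log2 fold change of 0.29 (95% interval -0.11 to 0.68). ND4 had 0.13 (95% interval -0.04 to 0.30) and CYTB 0.11 (95% interval -0.06 to 0.28). These 4 genes, lower with injury, thus all lay above NR in the mean, by amounts that did not pass. The comparisons of NR with NS and of HR with NR share the NR libraries.

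For the other members except ATP6 the estimates lay near 0, and the intervals bound what was missed. COX1 had a log2 fold change of HR over NR of 0.09 (95% interval -0.11 to 0.29), ND5 0.02 (95% interval -0.17 to 0.22), ND2 -0.02 (95% interval -0.25 to 0.21), ND1 -0.05 (95% interval -0.33 to 0.24) and ND6 -0.01 (95% interval -0.42 to 0.40). ATP6 had -0.21 (95% interval -0.74 to 0.33), and -0.52 without NR replicate 1, past the threshold as lower (limma adjusted p 0.045). Median-ratio rescaling put COX1 and ND5 below 0 and quantile normalization put ND1 and ND6 above it, so no direction is given for them. COX1 was called higher in HR after quantile normalization (0.36, limma adjusted p 0.0282). ND4L had 0.67 (adjusted p 0.112) and ND3 0.47 (adjusted p 0.128), and neither passed.

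Nuclear subunits did pass in this comparison. Of the 76, 43 were higher in HR than in NR and 0 lower, with a median log2 fold change of 0.24. In complex I, 28 of 37 were higher, with Ndufs1 at 0.52 (limma adjusted p 0.000279) and 53.1 ± 4.07 FPKM in HR against 36.7 ± 2.13 in NR. In ATP synthase 10 of 18 were higher, with Atp5o, the subunit that ties the stalk to the head, at 0.45, and in complex III 4 of 9. In complex IV only Cox5b passed, 1 of 12, at 0.38, and the list's median was 0.11, against 0.22 for COX1, COX2 and COX3.

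Of 7 genes listed under transcription of mitochondrial DNA 2 were higher in HR than in NR and 0 lower. Of 17 genes for its replication and upkeep 4 were higher and 1 lower, and of 21 that process or stabilize its transcripts 3 were higher and 1 lower. The lower ones were Rnaseh1 (-0.44, limma adjusted p 0.00893) and Pde12 (-0.24, adjusted p 0.0466). Tfb1m was higher in HR (0.56, limma adjusted p 0.00129), as were Polrmt (0.32, adjusted p 0.00586), Lrpprc, which binds and keeps mitochondrial messenger RNAs (0.40, adjusted p 0.0162), Hsd17b10, a subunit of mitochondrial RNase P (0.39, adjusted p 0.00468), and Ptcd2, whose loss in mice impairs CYTB transcript processing (0.32, adjusted p 0.0256). Of 13 translation factors 10 were higher and 0 lower, with Gfm2 at 0.59. Ppargc1a averaged 3.07 ± 0.432 FPKM in HR and 1.41 ± 0.273 in NR, a log2 fold change of 0.75 (limma adjusted p 0.000269). Beside these, 7 of 14 proximal tubule and 6 of 7 thick ascending limb genes were higher in HR and all 7 neutrophil genes tested were lower. Their part in these differences was not tested.

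Preconditioning alone left no call among the members. Between HS and NS, limma called 0 of 10, 0 had an unadjusted p under 0.05, and voom on the recovered reads called 0, while 0.186% of all genes tested were called higher and 0.235% lower. The log2 fold changes ran from -0.16 for COX2 and ND2 to 0.36 for ND6, with a median of -0.09 against 0.06 over all genes. Over all 23 alternatives, none of the 230 values of members was called, and the lowest adjusted p was 0.25.

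ND6 had 130, 113 and 117 FPKM in HR, 106, 137 and 121 in NR, 139, 197 and 176 in HS and 175, 131 and 97.4 in NS. The HS values were high, but NS replicate 1 reached 175 FPKM, and the log2 fold change of HS over NS was 0.36 ± 0.19 (SE, 95% interval -0.05 to 0.77, limma adjusted p 0.421). ND4 was the 1 of 10 members whose HS values all lay below NS, as 6.36% of all genes tested did, at 5138 ± 230 FPKM in HS and 5643 ± 132 in NS (SD, n = 3 each), with -0.14 (95% interval -0.31 to 0.03, limma adjusted p 0.471). COX1 had 0.03 (95% interval -0.17 to 0.24), and no nuclear subunit of the 76 passed in either direction.

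Injury in preconditioned mice, HR against HS, moved 1 member past the threshold. ND6 was lower in HR, at 120 ± 8.48 FPKM, than in HS, at 170 ± 29.3 FPKM (SD, n = 3 each), a log2 fold change of -0.49 ± 0.19 (SE, 95% interval -0.90 to -0.08, limma adjusted p 0.0457). The groups did not overlap, with 130 FPKM as the highest of HR and 139 as the lowest of HS. The call rested on single libraries: without HS replicate 2, the highest library, the adjusted p was 0.16, and it was also lost without HR replicates 1, 2 or 3 (adjusted p 0.0608, 0.107 and 0.102), HS replicate 3 (0.109), NR replicate 3 (0.0568) or NS replicate 2 (0.06). It was lost as well without the filter on low values (0.106), with quantile normalization (0.0832) and with the replicate block (0.0602). Of all genes tested, 33% were called higher and 19.4% lower here, 52.4% in all, so 1 of 10 lower is not above the background. HR lay wholly below HS in 23.1% of all genes tested and wholly above it in 40.2%.

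The other 9 members lay between -0.15 and 0.01 on the log2 scale. COX2 had -0.06 (95% interval -0.28 to 0.16), COX3 -0.15 (95% interval -0.55 to 0.24), CYTB -0.05 (95% interval -0.23 to 0.12) and ND4 -0.05 (95% interval -0.21 to 0.12), none of which passed. Quantile normalization changed this: ND4 (-0.54, limma adjusted p 0.000308), ND2 (-0.47, adjusted p 0.0128) and ND1 (-0.39, adjusted p 0.000375) then passed as lower in HR than in HS, and COX1 as higher (0.54, adjusted p 0.00237). In the same comparison 72 of the 76 nuclear subunits were lower in HR and 0 higher, with a median of -0.43. Tfam was the 1 of 7 genes listed under transcription that passed, lower in HR than in HS (-0.30, limma adjusted p 0.00857). Of the 21 genes that process or stabilize mitochondrial transcripts 6 were higher in HR, among them Pde12 (0.61), Tbrg4 (0.50) and Elac2 (0.35), and 1 was lower, Grsf1 (-0.39).

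Whether injury moved the members differently after preconditioning was tested by the interaction, HR minus HS less NR minus NS. By limma 0 of 10 members passed, 2 had an unadjusted p under 0.05, and voom on the recovered reads called 0, while 11.3% of all genes tested passed as higher and 12.6% as lower, 23.9% in all. The values closest to passing were COX2 at 0.38 ± 0.14 (SE, 95% interval 0.07 to 0.68, limma adjusted p 0.0695) and ND4 at 0.27 ± 0.11 (SE, 95% interval 0.03 to 0.51, adjusted p 0.0989). COX2 passed without HS replicate 1 (0.46, adjusted p 0.0483) or NS replicate 2 (0.48, adjusted p 0.0291), and ND4 without NR replicate 2 (0.34, adjusted p 0.0334). COX3 had 0.44 (adjusted p 0.226), CYTB 0.23 (adjusted p 0.151) and ND6 -0.37 (adjusted p 0.33).

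So the injury effect on COX2, COX3, CYTB and ND4 that passed in mice on room air did not pass in preconditioned mice, except for ND4 after quantile normalization, and the difference between the 2 effects did not pass either. For the nuclear subunits, the interaction was called higher in 11 of 76 and lower in 0, among them Ndufs1 at 0.49 (limma adjusted p 0.00671). Over all genes tested 11.3% were called higher and 12.6% lower, so 11 of 76 higher is close to the share over all genes. Of the 13 translation factors 6 were higher, with a median of 0.41. Esrra and Ppargc1a passed too, at 0.78 (adjusted p 0.0247) and 0.49 (adjusted p 0.0329).

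Across the 12 libraries the members moved together only in part. Between pairs of ND1, ND2, ND4, ND5, COX1 and CYTB the median Pearson r of the log2 values was 0.69 (15 pairs, 0.31 to 0.99). Between these 6 and COX2, COX3 or ATP6 it was 0.45 (18 pairs, -0.04 to 0.75), and between ND6 and the 6 it was 0.25 (-0.07 to 0.41). The points share groups, depth scaling and tissue, so these are descriptions with no test.

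The genes outside mitochondrial DNA whose levels were most like the members' mean were Cck, a peptide hormone (Pearson r = 0.873), Zfp963 (0.853), Tm9sf3 (0.837), Kit, a receptor tyrosine kinase (0.836), and Cbr2, a carbonyl reductase (0.835), each over 12 libraries. Cck had 6.77, 6.11 and 3.88 FPKM in HR, 2.06, 4.35 and 6.42 in NR, 10.1, 8.28 and 13.1 in HS and 8.09, 11.5 and 9.35 in NS. Its lowest library was NR replicate 1 and its highest HS replicate 3, the same libraries as for the members' mean. They were the top 5 of all genes tested, and a list picked by rank is a description only.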

How the data were processed

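Total RNA of 12 mouse kidneys, 3 per group, was isolated with TRIzol. The VAHTS Universal V10 kit made the libraries, a DNBSEQ-T7 read them, and all carry batch 1, per the labels. The authors deposited 1 table of FPKM, fragments per kilobase of gene scaled to library depth. The submitters' processing notes name mm10, HTSeq and DESeq2 without roles. No source used here gives the aligner, the annotation, the strandedness or how RNA was selected.

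FPKM totals ran from 465148 to 494620 per library. Steps between FPKM values gave back whole reads for 25542 of 25553 genes, within 1e-06, and 11 genes failed. With RefSeq gene lengths of GRCm38 all 13 mitochondrial protein genes implied the same depth. Of 66 library pairs, 0 shared an equal FPKM above 0, and the lowest chi-square per gene was 10.71. P-values set a difference of group means against the spread between mice within the groups.

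The tests were run in R 4.3.3 by limma 3.58.1, with a mean-variance trend. The values were log2(FPKM + 1), on which a fold change understates that of low genes. A single fit of 4 group means covered all 12 libraries and the 12357 genes that reached FPKM 1 in 3 or more libraries. Calls needed an adjusted p under 0.05 (Benjamini-Hochberg). The code was tested on simulated data.

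Positions are from the GENCODE annotation of GRCm38. Each gene was cut into windows of 50, 100 and 150 bases and looked up, on either strand, in GENCODE transcripts of nuclear chromosomes, and pseudogenes were aligned to the genes without gaps. All members are named in every comparison. Of each list, up to 4 called genes with the smallest adjusted p are named. Tfam, Lrpprc, Esrra and Ppargc1a, where they are named outside this rule, were chosen after their values were seen. The members and lists were chosen with earlier results of these data known. Alternatives were another pseudocount, other filters, rescalings, quantile normalization, fits without the other groups, no trend, the replicate number as a block, voom on recovered reads and leaving out each library.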

Additional observations from a re-analysis of the deposited data

How the results depend on the processing

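Of 1150 values of single members under 23 alternatives, 1069 kept direction and side of the threshold, 56 changed sign, 12 passed newly with the same sign and 13 no longer passed. Of the 56, 1 also passed, COX1 in HR minus HS under quantile normalization. COX2 and COX3 stayed called lower in NR than in NS under all 23 (adjusted p 0.000441 to 0.00992 and 0.00249 to 0.0468, limma), ND4 under 22 and CYTB under 21. None of these alternatives changed which reads had been counted for COX2 and COX3, so their uncertain levels stay a limit. Without the filter on low values 2 members were called lower in NR than in NS, and 0 in HR than in HS. The replicate block called 0 lower in HR than in HS as well (ND6, limma adjusted p 0.0602). Deviations of same-numbered libraries correlated at -0.248 to 0.165 in 18 pairs, 4 of them over 0.1. Differently numbered libraries were not set beside them, so these values cannot decide whether the numbers pair the samples. Quantile normalization called 6 members lower in NR than in NS, with ND1, ND2 and ND5 added and CYTB lost. It called 1 member, COX1, higher in HR than in NR. In HR against HS it called 1 higher, COX1, and 3 lower, ND1, ND2 and ND4, and not ND6.

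Signs changed as follows, in log2 units. Under quantile normalization COX1 had 0.247 in NR minus NS and 0.540 in HR minus HS, ND1 0.055, ND5 -0.033 and ND6 0.001 in HR minus NR, ND5 -0.288 and CYTB 0.034 in HR minus HS, and ND2 -0.071 in the interaction. Under median-ratio rescaling ND5 had -0.076 and COX1 -0.007 in HR minus NR, COX1 -0.056 in HS minus NS, and ND5 -0.085 and ATP6 -0.080 in HR minus HS. Scaling to the nuclear total gave ATP6 0.004 in HS minus NS and ND1 -0.010 in the interaction, and scaling to a common total gave 0.008 and -0.022. The cause was not tested.

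The members' share of summed FPKM was 11.95% in HR, 11.49% in NR, 12.39% in HS and 12.65% in NS. Set against the summed FPKM of nuclear genes it was 13.58% in HR, 12.99% in NR, 14.16% in HS and 14.48% in NS. By the nuclear measure too, HR replicate 1 (14.43%) and NR replicate 2 (14.21%) were above NS replicate 1 (14.13%). Counted in recovered reads the members' share was 7.401% in HR, 7.061% in NR, 7.698% in HS and 7.997% in NS. Only in recovered reads was every HR and NR library below every NS library.

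With each library left out in turn, the members called ranged from 0 to 1 for higher in NR than in NS, lower in HR than in NR, lower in HR than in HS, and higher in the interaction. Log2 values crossed 0 in these ranges. In NR minus NS, ND5 had -0.149 to 0.004, ND6 -0.329 to 0.092 and ATP6 -0.058 to 0.507. In HR minus NR, ND1 had -0.127 to 0.111, ND2 -0.078 to 0.054, ND5 -0.057 to 0.096, ND6 -0.100 to 0.082 and ATP6 -0.518 to 0.047. In HS minus NS, ND1 had -0.136 to 0.011, COX1 -0.030 to 0.078, COX3 -0.309 to 0.006 and ATP6 -0.167 to 0.163. In HR minus HS, ND1 had -0.137 to 0.101, ND2 -0.095 to 0.081, ND5 -0.029 to 0.052, CYTB -0.092 to 0.001, COX2 -0.150 to 0.017, COX3 -0.315 to 0.000 and ATP6 -0.174 to 0.156. In the interaction, ND1 had -0.064 to 0.174, COX1 -0.022 to 0.126 and ATP6 -0.493 to 0.072. Depth does not limit the abundant genes, whose counting error is far below the spread between mice.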
